A study of Mus musculus with 16 samples.

Results

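Transcript levels of the Rab genes at the two-cell stage of the mouse were read from 16 one-colour oligonucleotide arrays. A probe set was taken as a Rab probe set where its only annotated gene symbol starts with Rab and a digit, which held for 161 of the 45037 probe sets. They read 72 gene symbols. Of these, 59 are Rab GTPases, 9 are partners named after the Rab they bind or regulate, 3 are antisense or opposite-strand transcripts and 1, Rab5if, is named as a factor that interacts with Rab5. A filter on low values, which asked a probe set to reach the 40th percentile of the array on at least 4 of the 16 arrays, left 136 of the probe sets and 71 of the genes to test. Rab26, a Rab of secretory granules, was not tested, as it reached the filter value on 0 of the 16 arrays and read 1 to 8.5 intensity units.

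There were 4 groups of 4 arrays: BCB embryos with amanitin, BBB embryos with amanitin, untreated BCB embryos and untreated BBB embryos. In BCB embryos a C3H maternal pronucleus lay in B6 ooplasm beside a B6 paternal pronucleus. In BBB embryos the ooplasm, the maternal pronucleus and the paternal pronucleus were all B6, so every group shared B6 ooplasm and a B6 paternal pronucleus. B6 and C3H are inbred mouse strains. Amanitin (α-amantin in the labels) is a mushroom toxin that inhibits RNA polymerase II, and in the mouse the two-cell stage is when the embryo's own genome becomes active. The sources used here give neither its dose and timing nor the number of embryos per array. Nor do they say whether the 4 arrays of a group came from separate collections of embryos, so p-values measure only the spread between these arrays, which may be technical.

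Rab proteins are small GTPases that act as switches on membranes. An exchange factor loads a Rab with GTP on its membrane, the loaded Rab recruits effectors that tether, move or fuse vesicles, and a GTPase-activating protein ends the cycle. Each Rab marks its own compartment, from the endoplasmic reticulum through the Golgi to endosomes, lysosomes and secretory granules. In mouse oocytes Rab11a vesicles carry actin factors for spindle positioning, and Rab3 and Rab27 proteins take part in the release of cortical granules at fertilization.

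The deposited values were linear intensities that the authors had scaled, with a mean after trimming 2% at each end of 150.001 on each array. Across probe sets, which are not independent of each other, arrays of a group correlated at 0.976 to 0.99 and treated with untreated arrays at 0.764 to 0.815. Spiked controls read higher on treated arrays: the 9 hybridization controls by 0.79 in BCB and 0.55 in BBB on the log2 scale, and the 12 poly-A controls by 1.73 and 1.71. The summed intensity of the tested Rab probe sets was 85668 to 91289.5 on amanitin arrays and 54733 to 57618 in untreated BCB embryos. In untreated BBB embryos it was 51839 and 53694 on arrays 1 and 2 and 57674 and 57934 on arrays 3 and 4, and results were also taken without BBB arrays 3 and 4. The 6 oocyte and embryo markers were all measured, with sums from 10319 to 13207 on the 16 arrays, but single markers moved both ways. With amanitin (BCB, BBB) Zfp352 averaged 232 and 198 against 4255 and 4626 untreated, and Dppa4 71.4 and 61.2 against 2235 and 2160. Nlrp5 (3740 and 4279 against 1527 and 1587) and Bmp15 (2753 and 3020 against 1168 and 1111) were higher. So was Gdf9 (3338 and 3573 against 2175 and 2107), while Zp3 stayed at 683 to 747 in the group means. Summed cumulus and granulosa markers without Amhr2 were 145 to 223 in BCB embryos with amanitin, 129.9 to 158 in BBB embryos with amanitin, 59.4 to 95.4 in untreated BCB embryos and 62.8 to 95.8 in untreated BBB embryos, and Amh stayed at 1.7 to 2.98 in the group means. Amhr2 itself averaged 59.4 and 58.9 with amanitin (BCB, BBB), against 2410 and 2086 untreated. Summed sperm markers were 84.1 to 102 and 66.1 to 91.7 with amanitin, against 42.1 to 58.7 and 40.6 to 75.9 untreated. The part of these cell types and controls in the Rab results was not tested, except where a scaling to the controls is given.

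Amanitin divided the Rab genes. In BCB embryos with amanitin 38 of the 71 tested Rab genes were higher than in untreated BCB embryos and 22 were lower, at an adjusted p under 0.05 in limma. In BBB embryos with amanitin 33 were higher than in untreated BBB embryos and 22 were lower. The background was wide: of all 15274 genes tested, 39.9% were higher and 31.9% lower in BCB, and 37.1% were higher and 33.1% lower in BBB, so the Rab counts (53.5% and 31%, then 46.5% and 31%) are read against those shares, and the share of falls is no result about Rab genes. Of the Rab genes, 32 were higher in both kinds of embryo, 21 were lower in both, 9 passed in neither and 0 passed in opposite directions. Of all 15274 genes, 5141 were higher in both, 4566 were lower in both and 3284 passed in neither. Opposite calls were rare there too: 3 genes were lower in BBB and higher in BCB, and 7 the reverse. The median log2 change of the Rab genes was 0.49 in BCB and 0.33 in BBB, beside 0.17 and 0.11 over all genes.

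**Figure D1:**
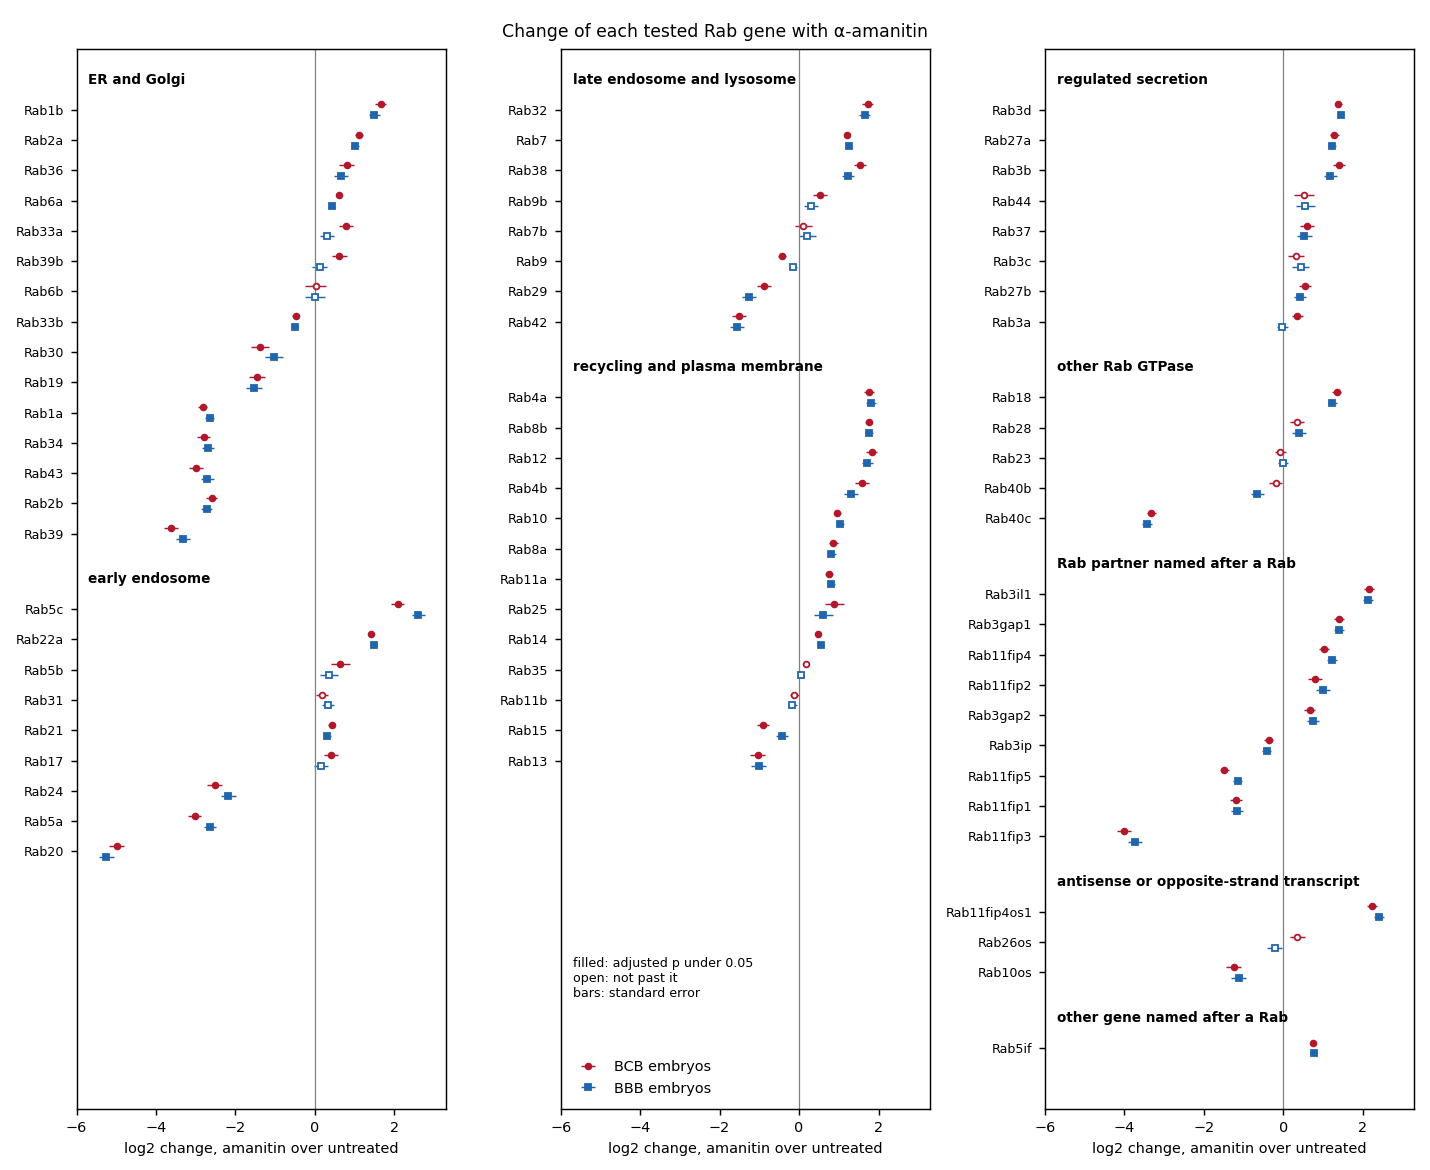
Change of each of the 71 tested Rab genes with amanitin, on a log2(intensity + 16) scale (horizontal axis), grouped by the compartment or role of the protein; red circles are BCB embryos, blue squares BBB embryos, bars are standard errors of the fit and filled symbols have an adjusted p under 0.05. The points run from -5.25 for Rab20 to 2.60 for Rab5c, both in BBB. With the poly-A scaling 47 of the 71 genes in BCB and 50 in BBB are lower and only 2 and 3 higher. Of all 15274 genes, 11770 in BCB and 12053 in BBB are then lower and 218 and 235 higher.

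At least 2-fold changes were 19 higher and 17 lower Rab genes in BCB, where the background was 16.2% and 21.1%, or 26.8% and 23.9% of the Rab genes. In BBB they were 21 higher and 18 lower, or 29.6% and 25.4%, where the background was 15.9% and 21.9%. Of the genes tested, 5 (Rab11fip3, Rab20, Rab30, Rab39 and Rab42) reached the filter through untreated arrays alone and 3 (Rab25, Rab33a and Rab37) through amanitin arrays alone. Passing through 1 side alone favours a difference, although Rab33a was not called in BBB, and the changes of these genes are given as descriptions. Among the 63 Rab genes that reached the filter on both sides, 35 were higher and 17 lower in BCB (55.6% and 27%) and 31 were higher and 17 lower in BBB (49.2% and 27%). Of all 12565 genes that did so, 43% were higher and 31.7% lower in BCB, and 40.6% and 32.9% in BBB. All changes are on the log2(intensity + 16) scale, which understates the change of dim genes.

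These directions are relative to the trimmed mean intensity that the authors set equal on each array, and those of the rises depend on it. Scaling to the poly-A controls moved the median change of all genes to -1.01 in BCB and -1.06 in BBB, and that of the Rab genes to -0.95 and -0.89. All 22 lower Rab genes in each kind stayed lower, 17 of which had reached the filter on both sides. Of the 38 higher genes in BCB, 2 stayed higher (Rab11fip4os1 and Rab3il1) and 16 became lower. Of the 33 in BBB, 3 stayed higher (the same genes and Rab5c) and 15 became lower. With hybridization controls the median of all genes was -0.35 in BCB and -0.24 in BBB, 19 of the 38 and 21 of the 33 higher genes stayed higher, and all 22 lower genes stayed lower in each kind. Centring arrays on their medians moved the median of all genes to 0.39 in BCB and 0.41 in BBB; all higher genes stayed higher, while 21 of 22 lower genes stayed called in BCB and 18 of 22 in BBB. Fewer cells and less RNA per cell cannot be told apart on these arrays.

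**Figure D2:**
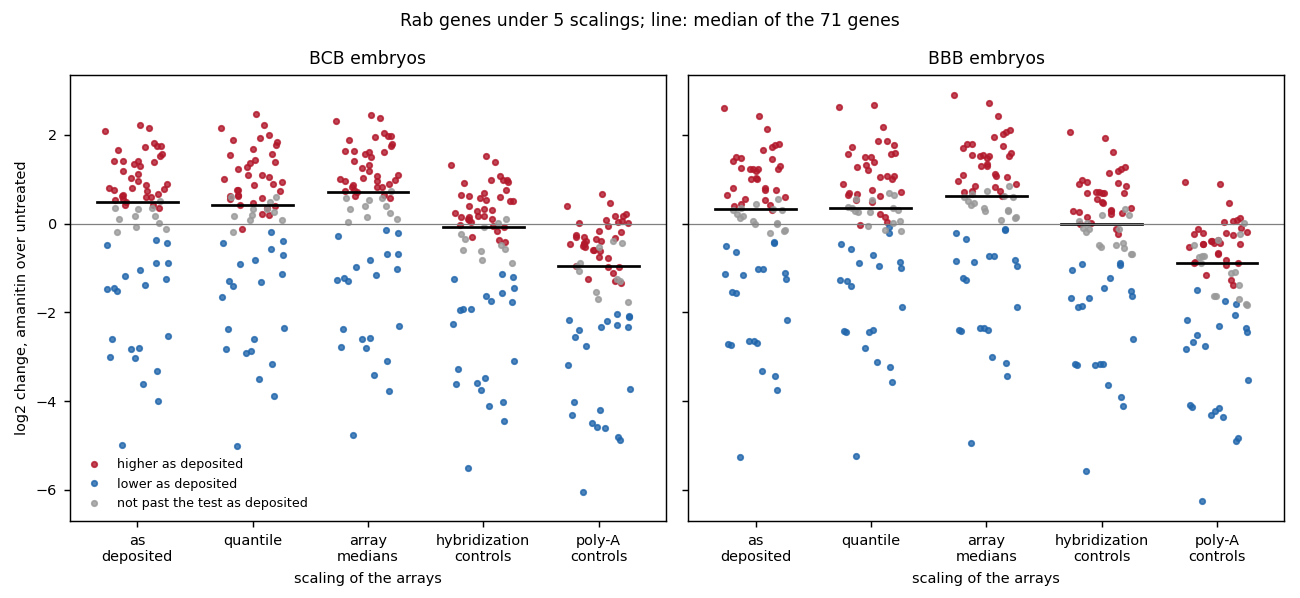
Log2 change of the 71 Rab genes with amanitin (vertical axis) under 5 scalings of the arrays, in BCB embryos (left) and BBB embryos (right); colours show the call with the deposited values and black lines the median. The genes lower as deposited stay below 0 under all 5 scalings, while the median of all 71 runs from 0.70 with array medians to -0.95 with poly-A controls in BCB.

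Rabs of the endoplasmic reticulum and Golgi moved both ways. Of 15 tested, 6 were higher and 8 lower in BCB (40% and 53.3%, beside 39.9% and 31.9% of all genes), and 4 were higher and 8 lower in BBB (26.7% and 53.3%, beside 37.1% and 33.1%). Without Rab30, Rab33a and Rab39, which passed the filter through 1 side alone, 5 of 12 were higher and 6 lower in BCB, and 4 and 6 in BBB. Under the poly-A scaling 4 of the 6 and 3 of the 4 higher ones were lower and none stayed higher, while all 8 lower ones stayed lower. Rab1a, which works in transport from the endoplasmic reticulum to the Golgi, had intensities of 272, 324, 344 and 259 in BCB embryos with amanitin and 425, 398, 395 and 293 in BBB embryos with amanitin. It had 2079, 2218, 2320.5 and 2239 in untreated BCB embryos and 2475, 2262, 2516 and 2474 in untreated BBB embryos, so every treated array lay far below every untreated one. The log2 change was -2.83 ± 0.11 in BCB and -2.65 ± 0.11 in BBB (SE; adjusted p = 1.55e-16 and 5.3e-16).

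Its close relative Rab1b went the other way with the deposited scaling. Rab1b had 581, 607, 563 and 430.5 in BCB embryos with amanitin and 504, 499, 478 and 571 in BBB embryos with amanitin. It had 172, 152, 135 and 187 in untreated BCB embryos and 158, 137, 198 and 204 in untreated BBB embryos, and again the treated and untreated groups did not overlap. The change was 1.66 ± 0.14 in BCB and 1.49 ± 0.14 in BBB (adjusted p = 1.66e-10 and 1.06e-09); with the poly-A scaling it was 0.02 in BCB and -0.13 in BBB, neither past the test, while Rab1a was at -4.49 and -4.31. The pair Rab2a and Rab2b split in the same manner with the deposited scaling. Rab2b, a Golgi Rab, had 44.5, 37.2, 62.2 and 63.8 in BCB embryos with amanitin and 45.6, 37.2, 32.3 and 49 in BBB embryos with amanitin. It had 407, 418, 372 and 364 in untreated BCB embryos and 339, 376, 391 and 332 in untreated BBB embryos, with no overlap. Its change was -2.60 ± 0.14 in BCB and -2.73 ± 0.14 in BBB (adjusted p = 1.29e-13 and 5.41e-14). Rab2a, which works between the Golgi and the endoplasmic reticulum, averaged 2706 ± 78.1 in BCB embryos with amanitin and 2469 ± 284 in BBB embryos with amanitin, against 1247 ± 58.6 and 1221 ± 158 untreated (SD, n = 4 each). Its change of 1.11 in BCB and 1.01 in BBB turned to -0.61 and -0.69 with the poly-A scaling.

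Rab39, a Rab of the Golgi and late endosomes, had 7.6, 4.7, 5 and 10.2 in BCB embryos with amanitin and 5.1, 9.2, 7.2 and 4.7 in BBB embryos with amanitin. It had 241, 272, 318 and 233 in untreated BCB embryos and 242, 292, 159 and 163 in untreated BBB embryos, so the treated arrays lay at or under the filter value of each array, which ran from 10.8 to 14.1. It passed the filter through untreated arrays alone, and the difference of -3.62 ± 0.17 in BCB and -3.31 ± 0.17 in BBB is a description. Rab43, of Golgi traffic, had 20.9, 26.7, 39.7 and 30.7 in BCB embryos with amanitin and 40.5, 49.1, 36 and 23.4 in BBB embryos with amanitin. It had 279, 432, 362 and 316 in untreated BCB embryos and 307, 364, 301 and 332 in untreated BBB embryos, and the groups did not overlap. Its change was -3.00 ± 0.17 in BCB and -2.70 ± 0.17 in BBB (adjusted p = 1.43e-13 and 8.64e-13). Rab34, of Golgi and lysosome positioning, was lower (-2.80 in BCB and -2.69 in BBB), and Rab19, Rab33b and, through the untreated side of the filter alone, Rab30 were also lower in both kinds. Rab6a (0.61 in BCB and 0.42 in BBB) and Rab36 (0.80 in BCB and 0.65 in BBB) were higher in both with the deposited scaling, while Rab39b and, through the amanitin side of the filter alone, Rab33a were called higher in BCB and not in BBB, a difference between kinds that did not pass the interaction test. Rab6a and Rab36 turned lower with the poly-A scaling. Rab6b passed in neither kind as deposited (0.02 in BCB and 0.00 in BBB) and was lower with the poly-A scaling (-1.30 and -1.39).

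**Figure D3:**
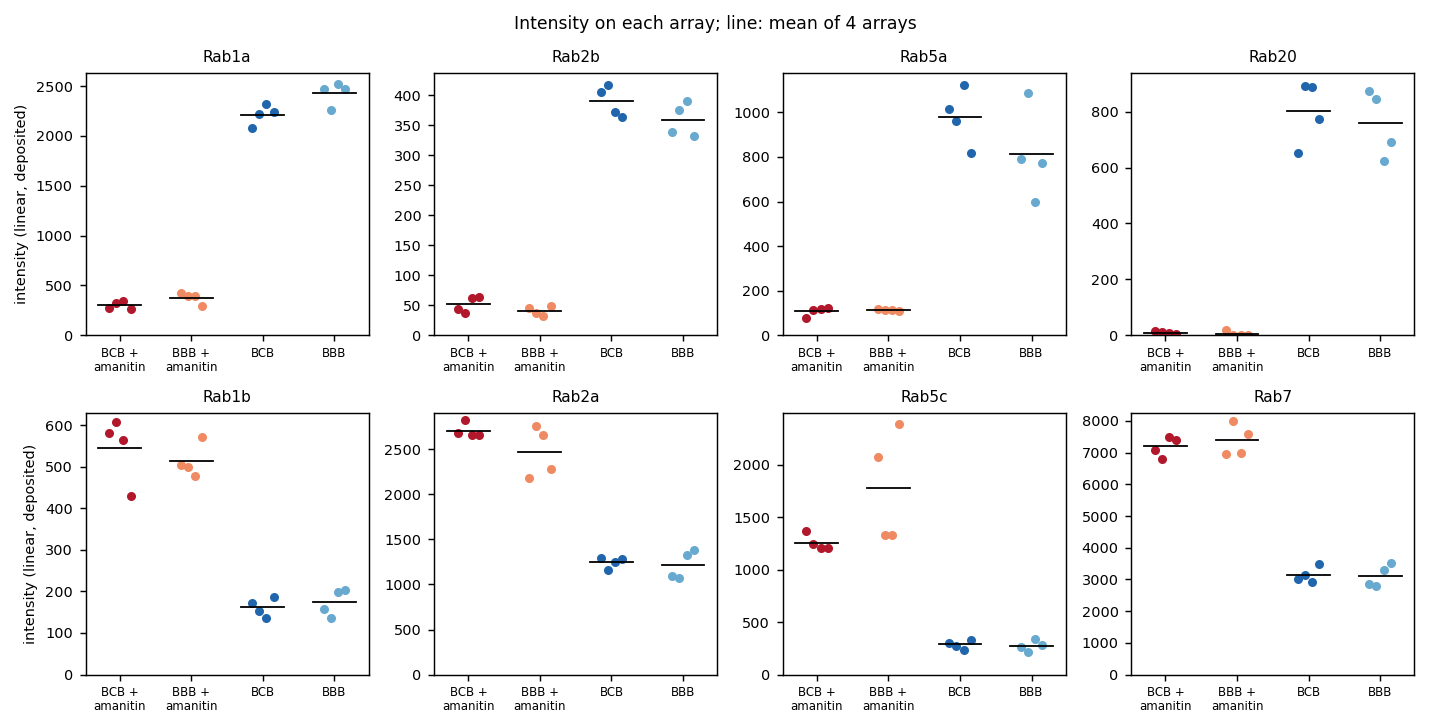
Deposited intensity (linear, vertical axis from 0) of 8 Rab genes on each array, in 4 groups; points are arrays and lines are means of 4. Rab1a, Rab2b, Rab5a and Rab20 (top) are low on all 8 amanitin arrays; Rab1b, Rab2a, Rab5c and Rab7 (bottom) are high there with the deposited scaling, although Rab2a and Rab7 turn lower with the poly-A scaling and Rab1b then no longer passes.

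Early endosome Rabs also moved both ways. Of 9 tested, 5 were higher and 3 lower in BCB (55.6% and 33.3%), and 3 were higher and 3 lower in BBB (33.3% each), beside the same shares of all genes as above; without Rab20 the falls were 2 of 8. With the poly-A scaling 1 higher gene became lower in each kind and all 3 lower ones stayed lower. Rab20, found on endosomes and phagosomes, had 13.7, 11.7, 8.6 and 4.9 in BCB embryos with amanitin and 18.1, 1.8, 0.6 and 0.5 in BBB embryos with amanitin. It had 650.3, 893, 888 and 774 in untreated BCB embryos and 874, 846, 624 and 690.3 in untreated BBB embryos, so the treated arrays were low on every array. Of the treated arrays 1 of 8 reached the filter value, so the gene was tested through its untreated arrays, and the difference of -4.99 ± 0.20 in BCB and -5.25 ± 0.20 in BBB is a description. Rab24, linked to autophagy, was lower (-2.52 in BCB and -2.18 in BBB). Rab22a and Rab21, both of endosomal sorting, were higher in both kinds (1.41 in BCB and 1.48 in BBB, then 0.42 in BCB and 0.31 in BBB), Rab17 in BCB alone (0.41) and Rab31 in neither; with the poly-A scaling none of these stayed higher. The Rab17 call ended in 5 of 16 fits that each left out 1 array (adjusted p from 0.0558 to 0.123), and Rab31 was called higher in BBB in 3 of 16 (adjusted p from 0.0382 to 0.0489). Rab31 was lower in both kinds with the poly-A scaling (-1.26 in BCB and -1.09 in BBB).

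The proteins of the 3 Rab5 genes drive fusion of early endosomes. Rab5a had 75.5, 112, 116 and 124 in BCB embryos with amanitin and 117, 115, 114 and 107 in BBB embryos with amanitin. It had 1015, 962, 1123 and 818 in untreated BCB embryos and 791, 1087, 599 and 773 in untreated BBB embryos, and all treated arrays were lower. The change was -3.03 ± 0.15 in BCB and -2.65 ± 0.15 in BBB (adjusted p = 2.91e-14 and 3.11e-13). Rab5c had 1371, 1241, 1206 and 1209 in BCB embryos with amanitin and 2074, 1332, 1332 and 2387 in BBB embryos with amanitin. It had 304, 276, 232 and 334 in untreated BCB embryos and 259, 215, 335 and 285 in untreated BBB embryos, so all treated arrays were higher, and BBB embryos with amanitin spread from 1332 to 2387. Its change was 2.08 ± 0.16 in BCB and 2.60 ± 0.16 in BBB (adjusted p = 5.53e-11 and 1.01e-12); with the poly-A scaling it was 0.40 in BCB (adjusted p = 0.0861) and 0.94 in BBB. Rab5b was dim. It had 43.3, 67.5, 48.5 and 15.2 in BCB embryos with amanitin and 45, 37.5, 41.9 and 17.4 in BBB embryos with amanitin. It had 20.5, 23.3, 17.4 and 18.9 in untreated BCB embryos and 22.1, 22, 17 and 33 in untreated BBB embryos, and the groups overlapped. Its change of 0.64 ± 0.24 in BCB and 0.36 ± 0.24 in BBB passed in BCB alone (adjusted p = 0.0195 and 0.187). It turned to -0.44 and -0.73 with the poly-A scaling, past the test in BBB only. The BCB call ended without BCB array 2 with amanitin (0.45, adjusted p = 0.0963) or array 3 (0.58, adjusted p = 0.0529), and the BBB change passed without BBB array 4 with amanitin (0.55, adjusted p = 0.0424).

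The 250 bases before the start of Rab1a, Rab1b, Rab5a and Rab5c are shown because each pair of related genes moved in opposite directions with the deposited scaling. They are from RefSeq on GRCm38.p6: Rab1a at chr11:20201162-20201411 on the plus strand, Rab1b at chr19:5106997-5107246 on the minus strand, Rab5a at chr17:53478984-53479233 on the plus strand and Rab5c at chr11:100738216-100738465 on the minus strand. Each is written 5′ to 3′ on the gene's strand, and capitals mark matches to 4 motifs: the CCAAT box (CCAAT or ATTGG), the GC box (GGGCGG or CCGCCC), the TATA box (TATAAA or TTTATA) and the E-box CACGTG.
Rab1a: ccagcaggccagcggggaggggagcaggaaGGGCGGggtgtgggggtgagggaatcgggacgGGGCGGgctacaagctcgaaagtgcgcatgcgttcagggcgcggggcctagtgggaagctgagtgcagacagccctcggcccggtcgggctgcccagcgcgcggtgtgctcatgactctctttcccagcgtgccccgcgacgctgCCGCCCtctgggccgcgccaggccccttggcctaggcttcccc
Rab1b: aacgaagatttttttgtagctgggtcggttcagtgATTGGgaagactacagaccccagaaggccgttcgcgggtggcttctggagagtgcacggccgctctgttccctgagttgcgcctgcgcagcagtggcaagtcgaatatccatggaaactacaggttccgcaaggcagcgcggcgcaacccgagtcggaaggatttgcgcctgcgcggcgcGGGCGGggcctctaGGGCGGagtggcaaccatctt
Rab5a: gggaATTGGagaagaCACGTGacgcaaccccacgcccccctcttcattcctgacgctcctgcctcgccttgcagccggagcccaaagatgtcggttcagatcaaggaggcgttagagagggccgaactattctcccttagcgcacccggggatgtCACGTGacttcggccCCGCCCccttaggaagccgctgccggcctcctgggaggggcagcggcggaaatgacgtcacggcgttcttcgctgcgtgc
Rab5c: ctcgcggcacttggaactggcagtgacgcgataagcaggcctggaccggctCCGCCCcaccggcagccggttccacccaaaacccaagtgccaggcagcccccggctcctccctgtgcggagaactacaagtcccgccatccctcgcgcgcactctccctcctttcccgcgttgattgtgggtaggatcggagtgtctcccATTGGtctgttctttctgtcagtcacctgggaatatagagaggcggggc
The Rab1a window held 3 GC boxes and the Rab1b window 2 with 1 CCAAT box. Rab5a held 1 CCAAT box, 1 GC box and 2 E-boxes, and Rab5c 1 CCAAT box and 1 GC box. No TATA box letters were in these 4 windows. Guanine and cytosine made up 72.4% of the Rab1a window, 60.8% of Rab1b, 64% of Rab5a and 63.2% of Rab5c. RefSeq windows were at hand for 58 of the 71 tested genes (76 windows). Of these windows 68.4% held a GC box, beside 32.7% of all 32851 windows, which include genes not tested here. The share was 67.9% of 28 windows of genes lower in both kinds and 73.3% of 30 windows of genes higher in both. CCAAT boxes were in 25% and 43.3% of the same sets, beside 33.8% of all windows. TATA boxes were in 7.14% and 6.67%, beside 12.4%, and E-boxes in 10.7% and 16.7%, beside 6.02%. A match is a run of letters and no evidence of binding.

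Late endosome and lysosome Rabs were mixed. Of 8 tested, 4 were higher and 3 lower in BCB (50% and 37.5%, beside 39.9% and 31.9% of all genes), and 3 were higher and 2 lower in BBB (37.5% and 25%, beside 37.1% and 33.1%); without Rab42, tested through untreated arrays alone, the falls were 2 and 1 of 7. With the poly-A scaling 1 of the higher ones became lower in each kind, and none stayed higher. Rab7, which drives maturation of late endosomes and their fusion with lysosomes, had 7084, 6799, 7498 and 7390.3 in BCB embryos with amanitin and 6959, 8003, 7002 and 7579.8 in BBB embryos with amanitin. It had 3001, 3151, 2917 and 3481 in untreated BCB embryos and 2869.5, 2792, 3295 and 3516 in untreated BBB embryos, so all treated arrays lay above all untreated ones. The change was 1.20 ± 0.08 in BCB and 1.24 ± 0.08 in BBB (adjusted p = 1.54e-12 and 7.19e-13), and it turned to -0.53 and -0.46 with the poly-A scaling. Rab32 (1.72 in BCB and 1.65 in BBB) and Rab38 (1.53 in BCB and 1.23 in BBB), both of lysosome-related organelles, were also higher with the deposited scaling; with the poly-A scaling Rab32 was at 0.09 and 0.02 and Rab38 at -0.18 and -0.46, none of them past the test. Rab29, a partner of the kinase Lrrk2, was lower (-0.89 in BCB and -1.25 in BBB), and so was Rab42 (-1.52 in BCB and -1.57 in BBB). In BCB alone Rab9b was called higher (0.52) and Rab9, of transport from late endosomes to the Golgi, lower (-0.43); the Rab9b call ended without untreated BCB array 2 (0.43, adjusted p = 0.0549). Rab7b passed in neither kind. With the poly-A scaling Rab7b was lower (-0.89 in BCB and -0.74 in BBB), and so was Rab9 (-2.12 and -1.83).

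Rabs of recycling and the plasma membrane were mostly higher with the deposited scaling. Of 13 tested, 9 were higher and 2 lower in each kind (69.2% and 15.4%, beside 39.9% and 31.9% of all genes in BCB and 37.1% and 33.1% in BBB), or 8 and 2 of 12 without Rab25, with a median change of 0.87 in BCB and 0.81 in BBB; with the poly-A scaling 4 of the 9 became lower in each kind, none stayed higher and both lower ones stayed lower. Rab4a, of fast recycling, had 1588, 1667, 1586 and 1446 in BCB embryos with amanitin and 1801, 1416, 1845 and 1814 in BBB embryos with amanitin. It had 548, 501, 355 and 439 in untreated BCB embryos and 379, 470.1, 508 and 579.7 in untreated BBB embryos, with no overlap. The change was 1.75 ± 0.13 in BCB and 1.80 ± 0.13 in BBB (adjusted p = 2.1e-11 and 1.22e-11), and 0.05 and 0.12 with the poly-A scaling, not past the test. Rab8b, of transport to the plasma membrane, had 2391, 3089.6, 2801 and 3424 in BCB embryos with amanitin and 2741, 3071, 2865 and 3076 in BBB embryos with amanitin. It had 829, 855, 841 and 867 in untreated BCB embryos and 773, 862, 906 and 873 in untreated BBB embryos, so treated arrays lay well above. Its change was 1.76 ± 0.09 in BCB and 1.77 ± 0.09 in BBB (adjusted p = 4.4e-14 and 3.91e-14), and 0.04 and 0.07 with the poly-A scaling, not past the test. Rab12, of transport from recycling endosomes to lysosomes, had 731, 763, 723 and 727 in BCB embryos with amanitin and 962, 781, 762 and 1042 in BBB embryos with amanitin. It had 234, 162, 158 and 245 in untreated BCB embryos and 236, 226, 284 and 282 in untreated BBB embryos, again without overlap. Its change was 1.82 ± 0.14 in BCB and 1.72 ± 0.14 in BBB (adjusted p = 2.98e-11 and 8.46e-11), and 0.17 and 0.06 with the poly-A scaling, not past the test.

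Rab13, a Rab of tight junction assembly, moved the other way. It had 21.8, 43.4, 33.5 and 49.2 in BCB embryos with amanitin and 41.8, 48, 29.9 and 19.4 in BBB embryos with amanitin. It had 82, 95.9, 97 and 89.7 in untreated BCB embryos and 83.5, 85.2, 79.1 and 90.5 in untreated BBB embryos, so every treated array was lower. The change was -1.04 ± 0.18 in BCB and -1.02 ± 0.18 in BBB (adjusted p = 2.28e-05 and 3.01e-05), and it stayed lower under every scaling tried. Rab15, of endocytic recycling, was the other member called lower, with -0.90 in BCB and -0.44 in BBB. The rest of the higher calls were Rab4b, Rab8a, Rab10, Rab11a, Rab14 and Rab25, with changes from 0.49 for Rab14 to 1.57 for Rab4b in BCB; with the poly-A scaling Rab8a, Rab10, Rab11a and Rab14 turned lower. Rab25 passed the filter through amanitin arrays alone, and its BBB call ended in 6 of 16 fits without 1 array (adjusted p from 0.0501 to 0.105). Rab35, of recycling and cytokinesis, had 1174, 1224, 1127 and 1214 in BCB embryos with amanitin and 1043, 1119, 1101 and 1150.3 in BBB embryos with amanitin. It had 981, 1050.1, 1045 and 1137 in untreated BCB embryos and 1020.2, 1048, 1134 and 1068 in untreated BBB embryos, and the groups overlapped. Its change of 0.17 ± 0.08 in BCB and 0.05 ± 0.08 in BBB did not pass (adjusted p = 0.0583 and 0.613); without untreated BCB array 4 the BCB change passed (0.21, adjusted p = 0.0339), and with hybridization controls it was -0.61 and -0.49 (adjusted p = 5.84e-05 and 0.000723).

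Rab11a and Rab11b serve slow recycling through the recycling endosome. By its brighter probe set Rab11a had 1579, 1776, 1802 and 1952 in BCB embryos with amanitin and 1538, 1779.7, 2022 and 1822 in BBB embryos with amanitin. It had 1028, 1022, 1014 and 1121 in untreated BCB embryos and 959, 949, 1138 and 1018 in untreated BBB embryos, so treated arrays were higher. The change was 0.75 ± 0.09 in BCB and 0.81 ± 0.09 in BBB (adjusted p = 1.16e-07 and 3.87e-08), which turned to -0.96 and -0.89 with the poly-A scaling and to -0.03 in BCB with hybridization controls. Rab11b had 459, 383, 380.3 and 303 in BCB embryos with amanitin and 379, 346, 334 and 397 in BBB embryos with amanitin. It had 389, 421, 418 and 420.5 in untreated BCB embryos and 420, 461, 392 and 375 in untreated BBB embryos, with overlap. Its change of -0.12 ± 0.12 in BCB and -0.17 ± 0.12 in BBB did not pass (adjusted p = 0.358 and 0.196). The sign turned, without passing, with quantile normalization (0.08 in BCB, 0.05 in BBB) and with array medians (0.10 and 0.13). Rab11b passed as lower with hybridization controls (-0.88 in BCB and -0.70 in BBB) and with poly-A controls (-1.77 and -1.82). The mean of its probe sets was also lower (-0.63 and -0.60) and passed. A dimmer Rab11b probe set averaged 59.9 ± 8.29 in BCB embryos with amanitin and 71.3 ± 17.7 in BBB embryos with amanitin, against 150.1 ± 10.6 and 160 ± 21.6 untreated (SD, n = 4 each). It was lower (-1.13 in BCB and -1.03 in BBB; adjusted p = 5.51e-07 and 2.37e-06).

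A few Rab genes were read in opposite directions by their own probe sets. The dimmer Rab11a probe set had 245, 305, 228 and 233 in BCB embryos with amanitin and 225, 218, 274 and 222 in BBB embryos with amanitin. It had 938, 973, 1049 and 1072 in untreated BCB embryos and 1056, 1024, 974 and 982 in untreated BBB embryos, so treated arrays lay far below, where the brighter probe set lay above. The change was -1.94 in BCB and -2.04 in BBB, against 0.75 in BCB and 0.81 in BBB for the brighter one, and the mean of both probe sets gave -0.59 and -0.62 for the gene. Rab10, of transport to the plasma membrane, rose with the deposited scaling by 0.96 in BCB and 1.04 in BBB by its brightest probe set and by 1.48 in BCB and 1.51 in BBB by the next. The dimmest Rab10 probe set had 1089, 1142, 1016 and 770.3 in BCB embryos with amanitin and 1229.8, 976, 799 and 862 in BBB embryos with amanitin. It had 1064, 1198, 1437 and 1229.9 in untreated BCB embryos and 1221, 1147, 1208 and 1173 in untreated BBB embryos, with overlap between treated and untreated arrays. Its change was -0.30 in BCB and -0.31 in BBB (adjusted p = 0.0407 and 0.0341). For Rab10 as a gene the change turned to -0.76 and -0.67 with the poly-A scaling. Rab5b was the third such gene, in BCB, where its dimmer probe set fell by 0.48 (adjusted p = 0.0207). In all, 3 of 38 Rab genes with at least 2 tested probe sets were called in opposite directions in BCB and 2 of 38 in BBB. Among all 6804 such genes the count was 857 (12.6%) in BCB and 838 (12.3%) in BBB.

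**Figure D4:**
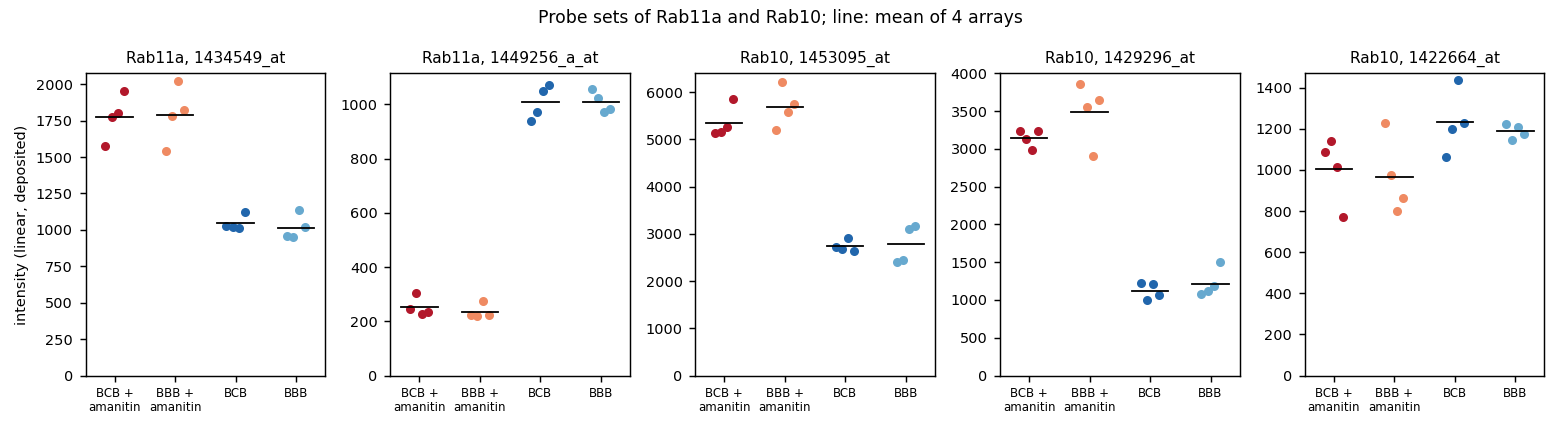
Deposited intensity (linear, vertical axis from 0) of the 2 Rab11a and 3 Rab10 probe sets on each array, in 4 groups; points are arrays and lines are means of 4. From left to right, Rab11a is higher with amanitin by its brighter and lower by its dimmer probe set, and Rab10 is higher by the first 2 of its probe sets and slightly lower by the last; with the poly-A scaling the first probe set of each gene is lower with amanitin.

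Rabs of regulated secretion had no fall with the deposited scaling. Of 8 tested, 6 were higher in BCB (75%, beside 39.9% of all genes) and 5 in BBB (62.5%, beside 37.1%), and 0 were lower, beside 31.9% and 33.1%. Without Rab37, tested through amanitin arrays alone, 5 and 4 of 7 were higher. With the poly-A scaling 2 of these became lower in each kind and none stayed higher. Rab27a, which docks secretory granules and melanosomes, had 723, 749, 754 and 681 in BCB embryos with amanitin and 676, 630.3, 741 and 626 in BBB embryos with amanitin. It had 326, 252, 266 and 316 in untreated BCB embryos and 261, 259, 296 and 294 in untreated BBB embryos, with all treated arrays higher. The change was 1.29 ± 0.10 in BCB and 1.22 ± 0.10 in BBB (adjusted p = 1.2e-10 and 3.05e-10). It turned to -0.38 and -0.43 with the poly-A scaling, past the test in BBB only. The Rab3 proteins act in the release of secretory vesicles. Rab3d averaged 4007 ± 329 in BCB embryos with amanitin and 4195 ± 151 in BBB embryos with amanitin, against 1522 ± 138 and 1524.5 ± 120.4 untreated (SD, n = 4 each). Its change was 1.39 in BCB and 1.45 in BBB, and that of Rab3b 1.40 in BCB and 1.19 in BBB; neither passed with the poly-A scaling, with -0.33 and -0.25 for Rab3d and -0.18 and -0.38 for Rab3b. Rab27b and Rab37 were also higher in both kinds, with Rab27b turning lower with the poly-A scaling and losing its BBB call without untreated BBB array 1 (0.35, adjusted p = 0.067). Rab3a was called higher in BCB alone (0.36), a call that ended in 5 of 16 fits without 1 array (adjusted p from 0.057 to 0.0885). It passed as lower with hybridization controls (-0.42 in BCB and -0.56 in BBB) and with poly-A controls (-1.34 and -1.70). Rab3c and Rab44 were called in neither kind with the deposited scaling, while Rab3c was lower in BCB with the poly-A scaling (-0.52). Without array 2 of BBB embryos with amanitin, Rab3c moved to 0.69 in BBB, where it was 0.44 on all arrays, and passed (adjusted p = 0.00206). Without array 1 of BCB embryos with amanitin, Rab44 moved to 0.82 in BCB, where it was 0.51, and passed (adjusted p = 0.0016); it was called in BBB in 6 of 16 fits (adjusted p from 0.0151 to 0.0497).

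Of the 5 other Rab GTPases tested, 1 was higher and 1 lower in BCB, and 2 were higher and 2 lower in BBB (20% each and 40% each). The shares of all genes were 39.9% higher and 31.9% lower in BCB, and 37.1% and 33.1% in BBB. With the poly-A scaling the 2 higher ones in BBB became lower. Rab40c, a Rab with a SOCS box, had 60.8, 61.1, 70.4 and 66.2 in BCB embryos with amanitin and 47.3, 46.2, 51.8 and 55.1 in BBB embryos with amanitin. It had 724, 848, 857 and 735 in untreated BCB embryos and 728, 851, 611 and 631 in untreated BBB embryos, so treated arrays were far lower. The change was -3.32 ± 0.12 in BCB and -3.44 ± 0.12 in BBB (adjusted p = 6.79e-17 and 3.92e-17). Rab18, of lipid droplets and the endoplasmic reticulum, was higher by 1.34 in BCB and 1.24 in BBB. It turned to -0.36 and -0.45 with the poly-A scaling, past the test in BBB only. Rab28 was called higher in BBB alone (0.40), and turned lower in both kinds with the poly-A scaling; the call (adjusted p = 0.0435) ended in 9 of 16 fits without 1 array, with 0.26 (adjusted p = 0.191) without array 4 of BBB embryos with amanitin. Rab40b was called lower in BBB alone (-0.65) with the deposited scaling, and in both kinds with either set of spiked controls. Rab23, a negative regulator of Hedgehog signalling, passed in neither kind (-0.07 ± 0.14 and -0.01 ± 0.14). It passed as lower with hybridization controls (-0.82 in BCB and -0.52 in BBB) and with poly-A controls (-1.69 and -1.63).

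Each of the 9 partners named after a Rab was called in both kinds, 5 higher and 4 lower (55.6% and 44.4%), or 5 and 3 of 8 without Rab11fip3. Of all genes, 39.9% were higher and 31.9% lower in BCB, and 37.1% and 33.1% in BBB. With the poly-A scaling the 4 lower ones stayed lower. Of the 5 higher ones 1 stayed higher in each kind, and 3 became lower in BCB and 1 in BBB. Rab11fip3, a Rab11 effector used in cytokinesis, had 8.3, 2.5, 2 and 1.9 in BCB embryos with amanitin and 8.4, 20.3, 4.7 and 2.5 in BBB embryos with amanitin. It had 261, 325, 303 and 298 in untreated BCB embryos and 322, 310.5, 284 and 312 in untreated BBB embryos, so the treated arrays were low. Of these 1 of 8 reached the filter value, so the gene was tested through its untreated arrays, and the difference of -4.00 ± 0.18 in BCB and -3.74 ± 0.18 in BBB is a description. The Rab11 effectors differed among themselves: Rab11fip1 (-1.19 in BCB and -1.16 in BBB) and Rab11fip5 (-1.48 in BCB and -1.14 in BBB) were lower, while Rab11fip2 (0.81 in BCB) and Rab11fip4 (1.03 in BCB and 1.23 in BBB) were higher with the deposited scaling and below 0 with the poly-A scaling. Rab3il1, an exchange factor related to Rabin8, had 1596, 1474, 1495 and 1455 in BCB embryos with amanitin and 1292, 1497, 1509.6 and 1427 in BBB embryos with amanitin. It had 338, 279, 284 and 412 in untreated BCB embryos and 313, 253, 378 and 321 in untreated BBB embryos, with all treated arrays higher. The change was 2.16 ± 0.12 in BCB and 2.13 ± 0.12 in BBB (adjusted p = 1.44e-13 and 1.73e-13), and 0.47 in both kinds with the poly-A scaling, still past the test. Rab3ip, which is Rabin8 itself and loads Rab8, was lower (-0.37 in BCB and -0.41 in BBB). Both subunits of the Rab3 GTPase-activating complex, Rab3gap1 (1.41 in BCB and 1.41 in BBB) and Rab3gap2 (0.66 in BCB and 0.75 in BBB), were higher with the deposited scaling and below 0 with the poly-A scaling, where only Rab3gap2 passed.

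Among the opposite-strand transcripts, Rab11fip4os1 had 361, 349.7, 402 and 435 in BCB embryos with amanitin and 379, 383, 425 and 428 in BBB embryos with amanitin. It had 77.5, 66.4, 60.2 and 75.5 in untreated BCB embryos and 57, 51.7, 76.9 and 67.3 in untreated BBB embryos, with no overlap. Its change was 2.23 ± 0.13 in BCB and 2.41 ± 0.13 in BBB (adjusted p = 2.53e-13 and 5.98e-14), and 0.67 and 0.89 with the poly-A scaling. Rab10os was lower (-1.25 in BCB and -1.12 in BBB), while Rab10 on the other strand was higher with the deposited scaling by 2 of its 3 probe sets. Rab26os passed in neither kind (0.35 in BCB and -0.22 in BBB), and passed in BCB in 1 of 16 fits without 1 array (0.45, adjusted p = 0.0447). With the poly-A scaling it was -0.40 in BCB, not past the test, and lower in BBB (-1.10). Rab5if was higher (0.74 in BCB and 0.76 in BBB) and lower with the poly-A scaling.

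The strain of the maternal pronucleus moved no Rab gene past the test. In untreated embryos, 0 of 71 Rab genes differed between BCB and BBB in limma, against a background of 0.655% of all genes; with amanitin 0 of 71 differed, against 0.0786%; and 0 of 71 showed an amanitin effect that differed between the kinds (the interaction), against 0.255%. At an unadjusted p under 0.05 there were 4, 6 and 5 Rab genes in these comparisons, or 5.63%, 8.45% and 7.04%, beside 7.06%, 10.7% and 8.05% of all genes. The lowest adjusted p was 0.199, 0.118 and 0.528, and the widest difference was 0.50, 0.60 and 0.57 on the log2 scale. With arrays weighted by quality, 1, 0 and 0 Rab genes passed. The median standard error of the amanitin contrast in BBB was 0.172 over all probe sets tested, and the interaction has a larger one.

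Rab15, Rab9 and Rab33a, named here after their values were seen, came nearest to the threshold or had the widest difference. Rab15 had 94.5, 147, 125 and 143 in untreated BCB embryos and 93.3, 80.9, 78.5 and 83.7 in untreated BBB embryos, and the groups did not overlap. The difference was 0.50 ± 0.15 (adjusted p = 0.199), and it passed when arrays were weighted by quality (0.51, adjusted p = 0.0471). Rab9 had 648, 593, 558 and 619.6 in BCB embryos with amanitin and 814, 686, 763 and 884 in BBB embryos with amanitin, without overlap. Its difference was -0.37 ± 0.09 (adjusted p = 0.118). Rab33a had 19.7, 19.7, 11.1 and 18.3 in BCB embryos with amanitin and 6.7, 14.1, 2.3 and 2 in BBB embryos with amanitin. Those groups overlapped, and the difference of 0.60 ± 0.18 did not pass (adjusted p = 0.214). Rab5c had the lowest p of the interaction, an amanitin effect smaller by 0.52 ± 0.23 in BCB than in BBB (adjusted p = 0.528).

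**Figure D5:**
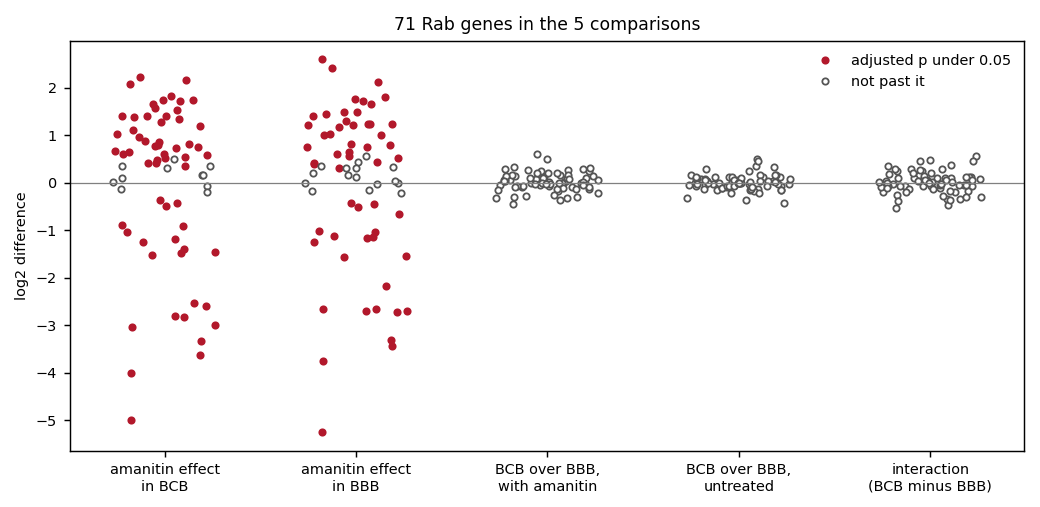
Log2 difference (vertical axis) of the 71 Rab genes in 5 comparisons: amanitin over untreated in BCB and in BBB, BCB over BBB with amanitin and untreated, and the interaction; red points have an adjusted p under 0.05. The amanitin effects run from -5.25 to 2.60. With the poly-A scaling 47 genes in BCB and 50 in BBB are lower, beside 11770 and 12053 of all 15274 genes. The 3 columns on strain stay within 0.60 of 0 (log2), with no red point.

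The proteins that load, unload and read Rabs were followed in 4 lists, and all their counts stand beside 39.9% higher and 31.9% lower over all genes in BCB and 37.1% and 33.1% in BBB. Of 18 tested genes for lipid attachment and recycling of Rabs, 5 were higher and 12 lower in BCB (27.8% and 66.7%), and 5 were higher and 10 lower in BBB (27.8% and 55.6%), with a median change of -0.75 and -0.77. Rabggtb, the catalytic subunit that attaches geranylgeranyl lipids to Rabs, had 45.1, 45, 39 and 35.2 in BCB embryos with amanitin and 60.1, 44, 66.5 and 20.7 in BBB embryos with amanitin. It had 389, 245, 394 and 271 in untreated BCB embryos and 385, 369.5, 348 and 272 in untreated BBB embryos, so treated arrays were far lower. The change was -2.55 in BCB and -2.55 in BBB, and Yipf4, a membrane protein of the Golgi, was lower (-2.16 in BCB and -2.44 in BBB). Pde6d, which shuttles prenylated proteins, was higher (1.93 in BCB and 1.95 in BBB; 0.31 and 0.34 with the poly-A scaling, not past the test), and Gdi2, which draws Rabs off membranes, was higher (0.73 in BCB and 0.77 in BBB) but lower with the poly-A scaling (-0.94 in BBB). In that list the poly-A scaling turned 4 of the 5 higher genes lower in each kind and kept all the lower ones.

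Of 51 tested exchange factors, 25 were higher and 15 lower in BCB (49% and 29.4%), and 24 were higher and 15 lower in BBB (47.1% and 29.4%). Of these genes 45 reached the filter on both sides, 24 of them higher and 13 lower in BCB, and 23 and 12 in BBB. The shares of falls were near those over all genes. With the poly-A scaling 20 of the 25 and 16 of the 24 became lower. Rabgef1, which loads Rab5 and is also called Rabex-5, had 31.7, 17.9, 42.6 and 34.9 in BCB embryos with amanitin and 24, 18.2, 34.7 and 35.4 in BBB embryos with amanitin. It had 1002, 1129, 986 and 1069.8 in untreated BCB embryos and 943, 1021, 819.9 and 875 in untreated BBB embryos, so treated arrays lay far below. The change was -4.50 in BCB and -4.42 in BBB, and Sh3bp5l, an exchange factor of Rab11, reached the filter on 3 of 8 treated arrays and differed by -2.77 in BCB and -3.23 in BBB. Trappc9, a subunit of the TRAPP complex, was higher (1.23 in BCB and 1.93 in BBB), but with the poly-A scaling it was -0.45 in BCB and 0.27 in BBB. Ric1, of the complex that loads Rab6, was higher (1.69 in BCB and 1.90 in BBB; 0.01 and 0.25 with the poly-A scaling, not past the test).

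Of 39 tested genes listed as GTPase-activating proteins, 18 were higher and 10 lower in BCB (46.2% and 25.6%). In BBB 19 were higher and 10 lower (48.7% and 25.6%). Of the 34 that reached the filter on both sides, 6 were lower in each kind. Whether each listed protein has this activity was not tested. With the poly-A scaling 14 of the 18 and 16 of the 19 became lower. Tbc1d23 was lower (-4.16 in BCB and -4.85 in BBB), and Tbc1d12, which reached the filter on 0 of 8 treated arrays, differed by -4.44 in BCB and -2.89 in BBB. Tbc1d8 (1.23 in BCB and 1.31 in BBB) and Tbc1d5 (1.36 in BCB and 1.28 in BBB), a regulator of Rab7, were higher, and both were below 0 with the poly-A scaling (-0.46 and -0.35, then -0.32 and -0.38).

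Of 74 tested effectors and tethers, 40 were higher and 20 lower in BCB (54.1% and 27%), and 41 were higher and 20 lower in BBB (55.4% and 27%). Of the 68 that reached the filter on both sides, 39 were higher and 16 lower in BCB, and 40 and 16 in BBB. Under the poly-A scaling 26 of the 40 and 27 of the 41 became lower, and all lower ones stayed lower. Wdr44, a Rab11 effector also called Rabphilin-11, had 12.5, 8, 7 and 8.9 in BCB embryos with amanitin and 3.1, 7.6, 21.5 and 0.7 in BBB embryos with amanitin. It had 624, 847, 1098 and 567 in untreated BCB embryos and 870.2, 916, 539.9 and 579.5 in untreated BBB embryos, so 1 of 8 treated arrays reached the filter. The difference, as a description, was -4.95 in BCB and -4.97 in BBB. Subunits of the exocyst, the tether of vesicles at the plasma membrane, differed: Exoc8, at the filter on 2 of 8 treated arrays, was at -3.85 in BCB and -3.93 in BBB, and Exoc4 was higher (1.93 in BCB and 2.03 in BBB; 0.23 and 0.35 with the poly-A scaling, not past the test). Vps39, of the complex that tethers late endosomes to lysosomes, was higher (1.87 in BCB and 1.92 in BBB; 0.23 and 0.30 with the poly-A scaling, not past the test).

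In the strain comparisons 2 of the listed regulators passed. Tbc1d12 had 367, 601, 598 and 485 in untreated BCB embryos and 180.2, 176, 135 and 88.3 in untreated BBB embryos, with no overlap. The difference was 1.73 ± 0.20 (adjusted p = 1.38e-05), and it did not pass with a pseudocount of 1 (adjusted p = 0.0874). With amanitin Tbc1d12 had 10.3, 11.1, 3 and 8.1 in BCB embryos with amanitin and 7.6, 6.9, 0.8 and 6 in BBB embryos with amanitin, all under the filter value of the array, and the kinds differed there by 0.18 (adjusted p = 0.809). The interaction of -1.56 therefore restates the untreated difference and is given as a description. Trappc9 had 298, 358, 379 and 403 in untreated BCB embryos and 235, 212, 279 and 259 in untreated BBB embryos, also without overlap. The difference was 0.52 ± 0.11 (adjusted p = 0.0181) and held in 11 of 16 fits that each left out 1 array; its interaction of -0.70 ± 0.15 (adjusted p = 0.0489) held in 3 of 16, and in 7 of 14 other settings.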

How the data were processed

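RNA of mouse two-cell embryos had been put on 16 arrays, 4 in each of 4 groups, which were taken from the sample labels. The deposited values were linear intensities, one per probe set and array, scaled by the authors; the method and software are not named in the sources used here, and a mean trimmed by 2% at each end of 150.001 on each array was found in the values themselves. Per the labels, a Picopure kit was used for total RNA and an ENZO kit for biotin labelling. Array number limits precision.

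Values were taken as log2(intensity + 16). Probe sets at or above the 40th percentile of the array on 4 or more arrays were tested (31953 of 45037). GEO's platform table gave 34945 probe sets 1 symbol, 932 several and 9160 none, and the tested probe set of highest mean stood for its gene. In limma 3.58.1 (R 4.3.3) 1 model of all 16 arrays with an intensity trend gave 5 contrasts, with Benjamini-Hochberg adjustment over all probe sets tested. The model was tested on simulated data. Alternatives were 14 other settings, 16 fits without 1 array each, and 1 setting, leaving out untreated BBB arrays 3 and 4, chosen after seeing the data.

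The Rab genes, the lists of regulators and markers and the tests were chosen with earlier results of these data known. Named with values for each array were the 6 largest rises and 6 largest falls in each amanitin contrast, Rab1a, Rab5a, Rab5b, Rab5c, Rab7, Rab11a, Rab11b, Rab13, Rab27a and Rab35; the other Rab genes were accounted for by compartment, and each list of regulators by 2 rises and 2 falls. Rab1b, Rab2a, Rab3d, Rab9, Rab15 and Rab33a were given values, and single regulators strain differences, after their values were seen. Same-numbered arrays did not deviate together from their group means (median correlation -0.00504 over 24 pairs, from -0.0871 to 0.107). The labels do not say whether a number pairs samples, and these correlations cannot settle it. Promoter windows came from RefSeq.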

Additional observations from a re-analysis of the deposited data

Results flagged for a closer look

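Single arrays that stood far from the other 3 of their group were found in 18 of 348 groups (4 groups of each of 87 named or Rab genes), or 5.17%, where chance gives about 1 in 20. Rab20 had 18.1 on array 1 of BBB embryos with amanitin, against 0.5 to 1.8 on the others, and Rab30 had 22.7 on array 3 of BCB embryos with amanitin, against 1 to 1.3. Rab11fip3 had 8.3 on array 1 of BCB embryos with amanitin, against 1.9 to 2.5; all of these remain far below the untreated arrays for Rab20 and Rab11fip3. Rab33a had 11.1 on array 3 of BCB embryos with amanitin (others 18.3 to 19.7) and 9.3 on array 2 of untreated BCB embryos (others 1.6 to 1.8).

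On other arrays of BCB embryos with amanitin, Rab10 had 5855.4 on array 4, and on array 2 Rab2a had 2821.7, Rab40b 19.8 and the exchange factor Ric1 833.4. In BBB embryos with amanitin, array 2 gave 1415.8 for Rab4a, 237.4 for Rab23 and 5.7 for Rab3c, array 3 gave 38.2 for Rab44, and array 4 gave 545.0 for Rab8a and 1830.6 for Rab21. In untreated BCB embryos, Rab11a had 1121.4 on array 4 and Rab11b 388.8 on array 1, and in untreated BBB embryos Rab1a had 2262.1 on array 2.

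Among the regulators, the amanitin effect differed between the kinds of embryo by the interaction term of limma for Trappc9 (-0.697346, BCB minus BBB) and Tbc1d12 (-1.55625). On all 8 treated arrays Tbc1d12 lay under the filter value, so its interaction restates the untreated difference between the kinds. No Rab gene passed that test.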

How the results depend on the processing

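Scaling to either set of spiked controls moved the median change of all genes down, kept all 22 falls in each kind and ended many rises. Array medians moved that median up, and kept all rises but 21 of 22 falls in BCB and 18 of 22 in BBB. Quantile normalization kept 37 of 38 rises and 21 of 22 falls in BCB, and 30 of 33 and 20 of 22 in BBB. Scaled to hybridization controls, 19 of 71 Rab genes were higher in BCB and 21 in BBB, beside 2373 and 3274 of all 15274 genes. Scaled to poly-A controls, 2 and 3 Rab genes were higher and 47 and 50 lower. Of all genes, 218 and 235 were then higher and 11770 and 12053 lower. The median Rab change was 0.70 in BCB and 0.63 in BBB with array medians, -0.077 and 0.00010301 with hybridization controls, -0.95 and -0.89 with poly-A controls, 0.70 and 0.52 with a pseudocount of 1, and 0.24 in BCB with a pseudocount of 64. Rab genes with probe sets called in opposite directions in either kind numbered 3 as reported, 5 with hybridization controls or no filter and 1 with poly-A controls. Array weights called 1 Rab gene higher in untreated BCB, Rab15. With poly-A controls (BCB, then BBB) the sign turned for Rab7 (-0.53, -0.46), Rab27a (-0.38, -0.43), Rab11a (-0.96, -0.89), Rab5b (-0.44, -0.73) and Rab35 (-1.54, -1.64). With hybridization controls it turned for Rab35 (-0.61, -0.49) and for Rab11a in BCB (-0.029). With the mean of probe sets it turned for Rab11a (-0.59, -0.62) and for Rab5b in BBB (-0.13). With quantile normalization it turned for Rab11b (0.081, 0.051) and for Rab35 in BBB (-0.058), and with array medians for Rab11b (0.10, 0.13). The cause was not tested. Of the values of single named genes, these 21 turned, 12 lost the call, 14 gained it and 1255 kept both direction and side of the threshold. Without 1 array each, higher Rab genes numbered 35 to 39 in BCB and 30 to 34 in BBB, lower ones 22 in each, strain calls 0, and the median ran from 0.42 to 0.50 and 0.31 to 0.39. With the replicate number as a block, counts were 38 and 33 higher, 22 and 22 lower and 0 in each strain comparison, with 32 of the 33 BBB rises among those called before (not Rab28) and all other such calls kept; the Trappc9 interaction then did not pass (adjusted p = 0.0532). Whether the numbers pair samples is not given in the labels, and 4 of 16 arrays correlated best with their own number. Leaving out untreated BBB arrays 3 and 4, chosen after seeing the data, gave 37 and 33 higher and 22 and 22 lower. Dim genes limit the fold changes: with both groups near an array's 40th percentile (10.8 to 14.1) a change is understated.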
